A study of Mus musculus with 20 samples.

Results

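The E2F family and its DP partners were examined as 10 genes, E2f1 to E2f8, Tfdp1 and Tfdp2, out of 18193 genes that could be named on the array. A probeset, the set of short probes whose signal is summarized into 1 value, was kept when the platform annotation assigned it to a single member. This gave 21 probesets of the 45037 tested, and each gene was represented by its brightest probeset (mean of the 20 arrays), with the others as a check. E2f4, E2f7 and Tfdp1 had only 1 probeset each, so no such check was possible for them. The 20 Affymetrix MOE430 2.0 arrays of mouse samples comprised 5 samples of normal skin and 15 skin carcinomas, and all values are log2 RMA values. The question put by the design was how tumors of both genotypes differ from normal skin, with histological grade and genotype as further comparisons.

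The normal skin came from wild type FVB mice aged 2 months, whereas no age was given for the tumors, so age and tumor state cannot be told apart. The 7 Trp53ΔEC tumors arose in k14Cre;p53loxP/loxP mice. The 8 RbΔEC; Trp53ΔEC tumors arose in k14Cre;p53loxP/loxP;pRbloxP/loxP mice. In both lines Cre is driven by the keratin K14 promoter, so that the floxed alleles are deleted in stratified epithelia and not in stroma, vessels or infiltrating cells, which the bulk RNA also contains. By histology, 6 tumors were poorly differentiated (2 Trp53ΔEC and 4 RbΔEC; Trp53ΔEC), 4 were of mixed histology (3 and 1), and 5 were undifferentiated or spindle cell carcinomas (2 and 3). Because the samples are bulk tissue, fewer cells of a type and less RNA per cell cannot be told apart. The labels do not say that all tumors came from different mice, so p-values measure only the spread between these samples.

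E2F proteins are transcription factors that control the genes of S phase entry. E2f1 to E2f6 bind DNA as heterodimers with a DP protein, encoded by Tfdp1 or Tfdp2, and the retinoblastoma protein and its relatives Rbl1 and Rbl2 (the pocket proteins) bind E2F and silence its targets until cyclin-dependent kinases phosphorylate them. E2f1, E2f2 and E2f3 are classed as activators, E2f4 and E2f5 act mainly as repressors together with pocket proteins in resting cells, and E2f6 represses without pocket proteins, in a Polycomb complex. E2f7 and E2f8 are atypical members that bind DNA without a DP partner and repress E2F targets late in the cycle, and several family members are themselves E2F targets. In the epidermis the pathway couples exit from the cell cycle to keratinocyte differentiation.

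E2F motifs stood in the promoter windows of some of the members. RefSeq promoter windows (build GRCm38.p6, 250 bases before to 50 after an annotated start) covered 8 of the 10 genes with 12 windows. An annotated start need not be the main start of its gene, so the motif counts below describe windows and not main promoters. The E2F octamers TTTCCCGC, TTTCGCGC, TTTGCCGC and TTTGGCGC were searched on both strands. A match occurred in 5 of the 12 windows, against 2.265% of all 32851 promoter windows and 3.208% of the windows of array genes. The 5 belong to 4 genes, since a pair of overlapping Tfdp1 windows holds the same site. Among the S phase E2F targets listed for this work, 12 of 27 windows held a match. A match is a description of the letters and not of binding. The windows of E2f1 and E2f8, which were also higher in tumors, held no match, nor did those of E2f6 and Tfdp2. Whether these windows hold the main promoter of their gene was not examined, for E2f1 as for the others. No match here therefore does not mean that a gene lacks E2F sites. For each gene with a match 1 window is shown, 5′ to 3′ on the strand of the gene. Of these, E2f7, Tfdp1 and E2f3 were higher in tumors, and E2f2 was lower in the undifferentiated and spindle carcinomas. Whether a match goes with a change was not tested. Capitals mark the octamer.
E2f7, chr10:110745189-110745488, plus strand, match at -198: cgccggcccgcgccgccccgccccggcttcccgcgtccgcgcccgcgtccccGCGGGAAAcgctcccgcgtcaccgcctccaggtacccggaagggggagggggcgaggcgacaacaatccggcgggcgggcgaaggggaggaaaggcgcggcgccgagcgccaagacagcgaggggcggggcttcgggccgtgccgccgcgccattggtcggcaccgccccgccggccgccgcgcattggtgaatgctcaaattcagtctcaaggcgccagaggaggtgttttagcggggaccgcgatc
Tfdp1, chr8:13338501-13338800, plus strand, match at -43: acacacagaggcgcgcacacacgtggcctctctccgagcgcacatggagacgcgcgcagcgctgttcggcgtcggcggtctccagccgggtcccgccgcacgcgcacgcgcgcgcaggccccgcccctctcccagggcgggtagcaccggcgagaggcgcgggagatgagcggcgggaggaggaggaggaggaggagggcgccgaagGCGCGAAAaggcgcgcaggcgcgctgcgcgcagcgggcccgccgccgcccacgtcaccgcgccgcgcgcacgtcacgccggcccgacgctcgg
E2f3, chr13:29986014-29986313, minus strand, match at -11: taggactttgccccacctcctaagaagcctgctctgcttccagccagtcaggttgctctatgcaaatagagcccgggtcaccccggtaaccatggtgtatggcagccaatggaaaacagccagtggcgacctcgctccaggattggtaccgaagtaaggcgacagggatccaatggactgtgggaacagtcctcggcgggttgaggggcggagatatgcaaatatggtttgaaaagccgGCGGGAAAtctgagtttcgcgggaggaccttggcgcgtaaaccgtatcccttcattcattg
E2f2, chr4:136172024-136172323, plus strand, match at 40: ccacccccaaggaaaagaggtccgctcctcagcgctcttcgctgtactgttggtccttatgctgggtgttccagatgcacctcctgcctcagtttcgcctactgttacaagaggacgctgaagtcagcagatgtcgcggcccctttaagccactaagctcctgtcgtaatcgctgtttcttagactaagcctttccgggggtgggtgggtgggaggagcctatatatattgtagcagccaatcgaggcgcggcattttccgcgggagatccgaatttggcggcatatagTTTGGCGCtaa

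Positions count from the annotated start, and the E2f7, Tfdp1 and E2f3 matches lie in reverse orientation (GCGGGAAA or GCGCGAAA). The GC box GGGCGG occurred in 8 of the 12 windows against 35.658% of all windows and 52.283% of the windows of array genes. The CCAAT box occurred in 5 of 12 against 37.408% of all windows, and the CHR element (TTTGAA or TTCGAA) in 3 of 12 (in E2f2, E2f3 and E2f8) against 19.226%. The GC content of the windows ran from 39.3% for Tfdp2 to 80.7% for Tfdp1. No match says only that these letters are not in the window.

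Compared with normal skin, 5 of the 10 genes were higher in tumors and none was lower (limma on 18193 genes, Benjamini-Hochberg adjusted p under 0.05, where 17.7% of all genes were higher and 18% lower). On the RMA scale the atypical repressors E2f7 and E2f8 differed by 6.96-fold and 5.54-fold, the DP partner Tfdp1 by 3.37-fold and the activators E2f1 and E2f3 by 1.98-fold and 1.94-fold. The skin values of E2f7 (4.83 to 4.96) lay below the medians of the skin arrays (5.59 to 5.63) and no detection call was used, so a signal at background cannot be told from a low level and the fold is that of the RMA values. For E2f7, E2f8 and Tfdp1 every tumor lay above every skin sample, which held for 6.9% of all genes, and no member lay below skin throughout, as 6.38% of all genes did. The activator E2f2, the repressors E2f4, E2f5 and E2f6, and Tfdp2 did not pass the test on their brightest probesets. The median difference of the 10 genes was 0.69, beside 0.02 over all genes.

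**Figure D1:**
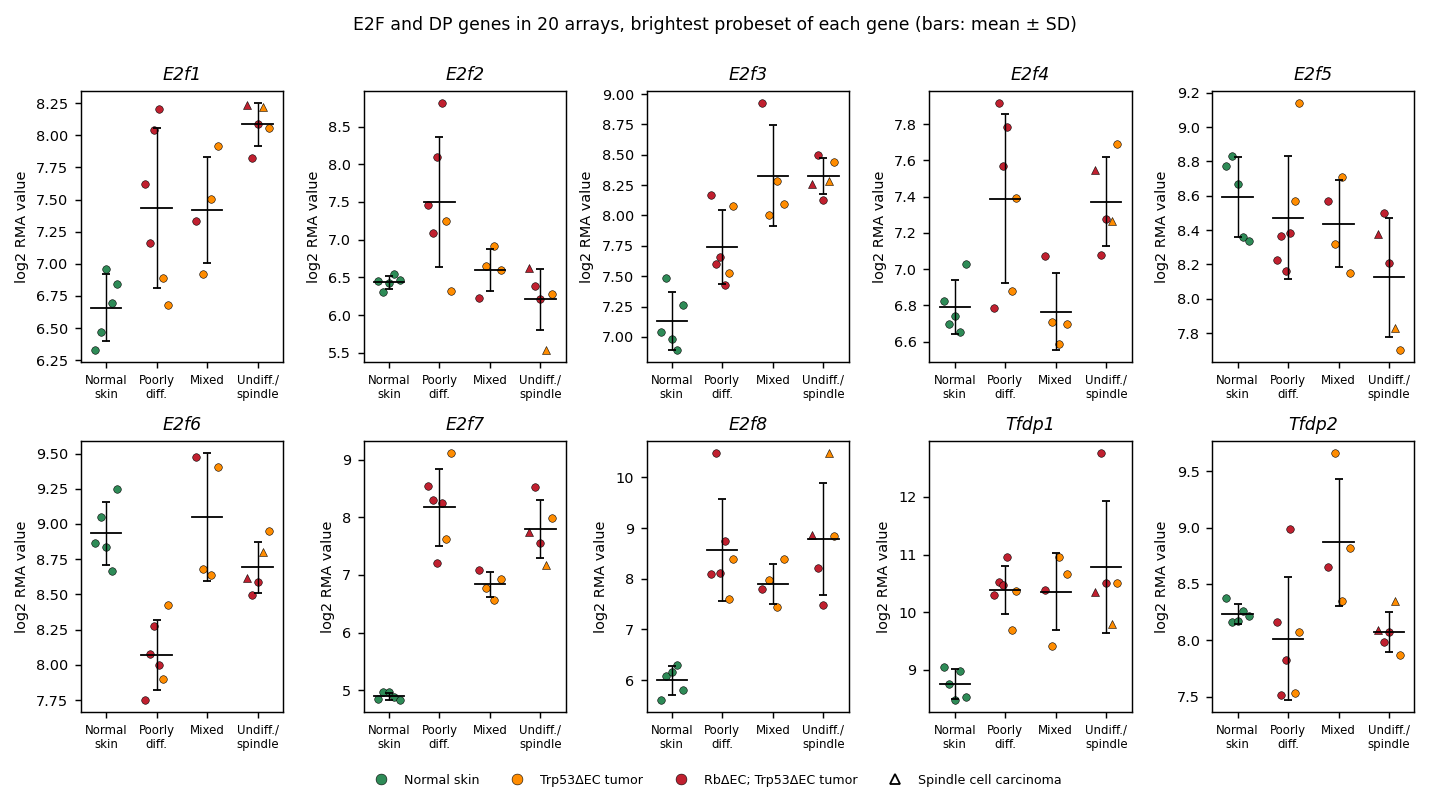
Log2 RMA value (vertical axis) of each E2F and DP gene in 5 normal skin samples and 15 tumors grouped by histology (horizontal axis); each point is 1 array, colored by genotype, triangles are spindle cell carcinomas, and bars give the mean and SD of each class. E2f7 lay between 4.83 and 4.96 in skin and at 6.56 or above in all tumors, while E2f6 was lowest in the poorly differentiated tumors, at 7.75 to 8.43.

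E2f1, which can drive both replication and apoptosis genes, was measured in the skin samples at 6.33, 6.47, 6.96, 6.70 and 6.84. In the tumors it ran from 6.68 to 8.24. Trp53ΔEC tumors 3, 4 and 6 fell inside the skin range and the other tumors lay above it. The difference was 0.99 ± 0.24 (SE, adjusted p = 0.0034), and it was also called with the other E2f1 probesets, at 0.66 and 0.37. Within the Trp53ΔEC tumors alone it missed the threshold (0.80, adjusted p = 0.051).

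E2f2, the activator grouped with E2f1 and E2f3, lay between 6.30 and 6.54 in skin. The tumors ranged from 5.54 to 8.81, both below and above skin. Their mean difference of 0.39 ± 0.36 was not called (adjusted p = 0.43, 95% interval -0.36 to 1.15). The poorly differentiated class taken alone was higher than skin by 1.07 ± 0.31 (adjusted p = 0.010), but the other E2f2 probeset gave 0.68 (adjusted p = 0.27), so this call rests on 1 probeset.

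E2f3, the activator whose product is needed for the cycling of many primary cells, stood in skin at 7.04, 7.48, 6.98, 6.89 and 7.26. Tumors ran from 7.43 to 8.93, and RbΔEC; Trp53ΔEC tumor 8 was the only tumor within the skin range. The difference was 0.96 ± 0.19 (adjusted p = 0.0005). The dimmer E2f3 probeset differed by 0.81, with all tumors above all skin samples.

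E2f4, the main E2F of resting cells, lay at 6.65 to 7.03 in skin and at 6.58 to 7.92 in tumors. The overall difference of 0.43 ± 0.19 was not called (adjusted p = 0.094). Against skin, both the poorly differentiated class (0.60 ± 0.18, adjusted p = 0.015) and the undifferentiated and spindle class (0.58 ± 0.19, adjusted p = 0.021) were higher. The mixed tumors differed from skin by -0.02 ± 0.20 (adjusted p = 0.94).

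The readout of E2f5, the other pocket protein dependent repressor, depended on the probeset. The brightest one, 1447625_at, lay at 8.34 to 8.83 in skin and 7.70 to 9.14 in tumors, a difference of -0.25 ± 0.17 (adjusted p = 0.27). By contrast 1417444_at gave 5.82 to 6.42 in skin and 6.87 to 8.88 in tumors, and 1460207_s_at gave 6.46 to 6.78 in skin and 7.37 to 8.97 in tumors. On both of these every tumor was above every skin sample, by 1.75 ± 0.27 (adjusted p = 3.94e-05) and 1.46 ± 0.23 (adjusted p = 4.76e-05) with adjustment over all probesets, of which 20.9% were higher and 15.4% lower. The median of the 3 probesets rose by 1.42 (adjusted p = 2.58e-05), the opposite sign to the brightest probeset. No source used here says which part of the transcript each probeset reads, so the direction of E2f5 is unsettled.

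E2f6, the pocket protein independent repressor, lay at 8.66 to 9.25 in skin and 7.75 to 9.48 in tumors. The difference of -0.39 ± 0.23 was not called (adjusted p = 0.19). The poorly differentiated tumors alone were lower than skin, by -0.86 ± 0.17 (adjusted p = 0.0005), and all 6 lay below the 5 skin samples, as 14.4% of all genes did. The dimmer probeset gave -0.20 (adjusted p = 0.24), so this call rests on 1 probeset. In the undifferentiated and spindle class limma called the dimmer probeset lower than skin (-0.365, adjusted p = 0.038) but not the brightest (-0.24, adjusted p = 0.30). On the brightest probesets E2f6 was the single member that was lower than skin in any histological class.

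E2f7 was measured in skin at 4.85, 4.96, 4.96, 4.88 and 4.83. The 15 tumors ran from 6.56 to 9.12, and the difference was 2.80 ± 0.33 (adjusted p = 1.29e-06). The lowest tumors were Trp53ΔEC tumor 5 (6.56) and tumor 3 (6.78), both of mixed histology. The highest was Trp53ΔEC tumor 6 (9.12), which was poorly differentiated. E2f7 and Tfdp2 belong to the tumor signature that the study derived from these arrays, so their direction in this comparison is not independent evidence.

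E2f8, its close relative, was at 5.61, 6.09, 6.16, 6.30 and 5.81 in skin. Tumors ranged from 7.44 to 10.48 around a mean of 8.46, and the difference was 2.47 ± 0.41 (adjusted p = 9.32e-05). The highest values came from Trp53ΔEC tumor 1, a spindle cell carcinoma, and RbΔEC; Trp53ΔEC tumor 6, a poorly differentiated carcinoma, both at 10.48, and the next tumor reached 8.87. The dimmer E2f8 probeset was highest in Trp53ΔEC tumor 1 too (7.93), but its tumor to skin difference of 0.92 ± 0.38 was not called (adjusted p = 0.065).

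Tfdp1, which encodes the DNA-binding partner DP1, was at 9.04, 8.75, 8.48, 8.98 and 8.54 in skin. Tumors ranged from 9.42 to 12.76, and the difference was 1.75 ± 0.34 (adjusted p = 0.00036). RbΔEC; Trp53ΔEC tumor 3, an undifferentiated carcinoma, stood apart at 12.76, with the next tumor at 10.96. Without that tumor the difference was 1.59 ± 0.21 (adjusted p = 7.15e-06).

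Tfdp2, which encodes the alternative partner DP2, again differed between probesets. The brightest, 1435344_at, gave 8.16 to 8.38 in skin and 7.51 to 9.66 in tumors, a difference of 0.03 ± 0.25 (adjusted p = 0.95). On 1443962_at the skin samples lay at 5.10, 4.82, 4.97, 5.39 and 5.36, below all tumors (6.44 to 8.25), and on 1437174_at at 6.29 to 7.02, below the tumors at 7.30 to 9.17. These differences were 2.07 ± 0.25 (adjusted p = 1.92e-06) and 1.64 ± 0.23 (adjusted p = 1.42e-05). The 4th probeset, 1445873_at, differed by 0.13 ± 0.23 (adjusted p = 0.70). The probesets of Tfdp2 therefore gave different answers within the same arrays, and no single direction is stated for the gene.

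**Figure D2:**
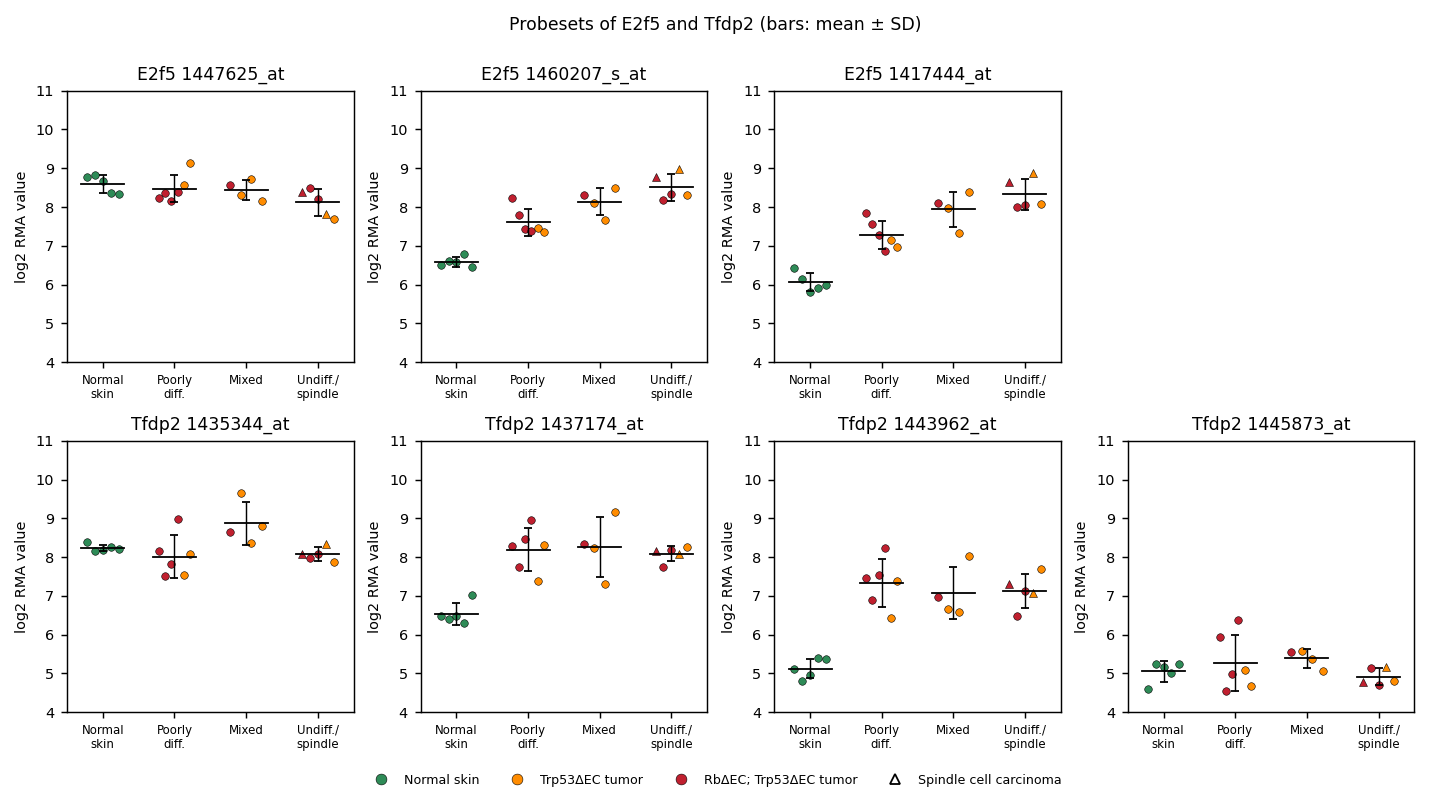
Log2 RMA value (vertical axis) of the 3 E2f5 and 4 Tfdp2 probesets in normal skin and the histological classes (horizontal axis), with 1 point per array and bars for mean and SD. The brightest probesets (1447625_at and 1435344_at) overlapped between skin and tumors, whereas 1417444_at, 1460207_s_at, 1437174_at and 1443962_at placed all 15 tumors above the 5 skin samples.

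The genes around the family were counted from lists chosen with earlier results of these data known. Of 10 pocket proteins and CDK inhibitors, 4 were higher in tumors and 2 were lower, with a median difference of 0.01. Rbl1, which pairs with E2f4 and is an E2F target itself, rose by 1.62 ± 0.19 (adjusted p = 1.32e-06), whereas Rbl2, the pocket protein of resting cells, fell from 8.94 to 8.13 and Rb1 from 9.08 to 7.81. The inhibitor genes Cdkn2a, which encodes p16 and p19Arf, and Cdkn2b rose by 4.63 and 2.35. Rb1 was the targeted gene of the double line, and is described with the genotypes.

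Of 9 G1 cyclins and CDKs, 5 were higher and none was lower. The cyclin E gene Ccne2, whose product phosphorylates the pocket proteins with Cdk2, rose from 5.41 to 8.33, and Cdk2, Cdk6 and Ccnd1 rose by 1.13, 0.89 and 1.25. Of 8 genes of the MuvB and DREAM complexes, which join E2f4, E2f5 and pocket proteins in rest and B-Myb in mitosis, 6 were higher. Mybl2 rose by 2.16, Lin9 by 1.41, Lin54 by 0.94 and Rbbp4 by 0.88. Of 12 measured partners of E2f6 in its Polycomb complex, 4 were higher and 2 lower. Yaf2 and Pcgf6 rose by 1.26 and 1.18, and Ring1 and Mga decreased by 0.73 and 0.59.

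Among 28 measured S phase E2F targets, 27 were higher and none was lower, with a median difference of 2.13. The replication licensing gene Cdc6 went from 4.45 to 7.93, Chek1 from 4.76 to 7.94, Tk1 from 6.30 to 9.26 and Cdt1 from 7.98 to 10.82. All 17 measured mitosis genes were higher, with a median of 2.66, led by the checkpoint kinase gene Bub1 at 4.30. Apoptosis genes under E2F control moved less, with 2 of 8 higher, Pmaip1 by 1.96 and Bcl2l11 by 0.75. These counts are a description of lists chosen with earlier results known, and support nothing about the members.

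The skin and tumor samples also differed in the levels of tissue and cell type markers. The mean level of 10 skeletal muscle markers was 13.34 to 13.87 in skin and 4.92 to 8.84 in tumors, and all 10 were lower in tumors. All 4 measured adipocyte markers were lower too, with mean levels of 9.91 to 10.57 in skin and 4.37 to 6.56 in tumors. Keratinocyte markers, which should define skin and its carcinomas, were at 12.35 to 12.54 in skin, 10.29 to 12.37 in poorly differentiated tumors, 6.45 to 9.59 in mixed tumors and 5.14 to 9.20 in undifferentiated and spindle carcinomas. The 3′ minus 5′ difference of the Actb control probesets, a sign of RNA quality, was 0.50 to 1.19 in skin and 0.24 to 0.82 in tumors. The part of these differences in the E2F values was not tested.

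Between undifferentiated or spindle carcinomas (5) and poorly differentiated carcinomas (6), the activators E2f3 and E2f2 differed in opposite directions. E2f3 was 1.5-fold higher and E2f2 2.45-fold lower in the undifferentiated and spindle class, and E2f6 was 1.54-fold higher. In all, 2 of 10 genes were higher and 1 was lower, where 12.7% and 9.9% of all genes were called. The other 7 did not pass, among them E2f7 (-0.37 ± 0.33, 95% interval -1.11 to 0.36) and E2f8 (0.21 ± 0.57, 95% interval -1.05 to 1.46).

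E2f6 was at 8.50, 8.59, 8.61, 8.80 and 8.95 in the undifferentiated and spindle tumors. In poorly differentiated tumors its lowest, median and highest values were 7.75, 8.04 and 8.43. The classes did not overlap (7.43% of all genes lay without overlap in this direction and 6.89% in the other), and the difference was 0.62 ± 0.14 (adjusted p = 0.0071). The dimmer probeset of E2f6, at 4.82 to 5.50 over these tumors, did not follow (-0.16 ± 0.13, adjusted p = 0.46), and the median of both gave 0.23 (adjusted p = 0.18). The call therefore rests on 1 probeset.

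E2f3 ran from 8.13 to 8.50 in the undifferentiated and spindle tumors and from 7.43 to 8.17 in the poorly differentiated ones, overlapping at RbΔEC; Trp53ΔEC tumor 2 (8.17). The difference was 0.58 ± 0.15 (adjusted p = 0.016), and the other probeset gave 0.47 (adjusted p = 0.045) with no overlap. E2f3 was thus called on both of its probesets.

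E2f2 ran the other way. Its values were 5.54, 6.28, 6.39, 6.22 and 6.62 in the undifferentiated and spindle tumors, and 6.32, 7.25, 7.46, 7.09, 8.10 and 8.81 in the poorly differentiated ones. Only Trp53ΔEC tumor 6 (6.32) among the latter fell inside the range of the former. The difference was -1.30 ± 0.38 (adjusted p = 0.030). The other E2f2 probeset gave -1.28 ± 0.57 (adjusted p = 0.16), so the call rests on 1 probeset. The call was lost when Trp53ΔEC tumor 1, Trp53ΔEC tumor 2, RbΔEC; Trp53ΔEC tumor 5 or RbΔEC; Trp53ΔEC tumor 7 was left out, with adjusted p between 0.055 and 0.075.

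E2f1 was higher on average in the undifferentiated and spindle class, at 7.82 to 8.24 against 6.68 to 8.20, but the difference of 0.65 ± 0.27 was not called (adjusted p = 0.11). Among the fits that left out 1 tumor it was called only without RbΔEC; Trp53ΔEC tumor 8 (0.81, adjusted p = 0.038). Tfdp1 differed by 0.40 ± 0.45 (adjusted p = 0.59), and by -0.09 ± 0.23 once RbΔEC; Trp53ΔEC tumor 3 was left out. For E2f5 the probesets diverged again, with -0.35 ± 0.20 (adjusted p = 0.26) on the brightest and 1.05 ± 0.22 (adjusted p = 0.0058) on 1417444_at, on which the classes did not overlap. Over all probesets 10% were higher and 6.96% lower in this comparison.

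The lists of the wider pathway differed in how many genes were called between the grades, beside 12.7% higher and 9.9% lower over all genes. Of 28 S phase targets only the cyclin A gene Ccna2 was higher (0.92, adjusted p = 0.036), and none of 17 mitosis genes was called by limma, with 1 at an unadjusted p under 0.05 (median 0.38), a threshold that 19.2% of all genes passed upward and 14.8% downward. Of 10 pocket proteins and CDK inhibitors 4 were higher and 1 lower, with Cdkn1c, Cdkn2a and Cdkn2b higher by 2.79, 2.52 and 1.79, and Cdkn1a, the p53 target that encodes p21, lower by -2.04. Among 8 apoptosis genes 3 were higher and 2 lower, and Trp73 and Pmaip1 were lower (-2.13 and -2.01) and Apaf1 and Bcl2l11 higher (0.96 and 0.85). Of 12 partners of E2f6 3 were higher and 1 lower, with Yaf2, Rnf2 and Ehmt2 higher (0.94, 0.93 and 0.53) and Pcgf6 lower (-0.74). Of the G1 genes, Ccnd1 and Cdk4 were higher by 1.53 and 0.62, and none of the 8 MuvB and DREAM genes was called, with 1 at an unadjusted p under 0.05. Levels of cell type markers moved with grade as well. In the undifferentiated and spindle tumors 9 of 10 keratinocyte markers were lower. In the same tumors 4 of 8 macrophage, 5 of 7 endothelial and 3 of 10 mesenchymal markers were higher. Fewer or more cells of a type cannot be told here from less or more RNA per cell. The 3′ minus 5′ difference of Actb separated the grades without overlap, at 0.42 to 0.82 in poorly differentiated and 0.24 to 0.38 in undifferentiated and spindle tumors. The part of these measures in the E2F differences was not tested.

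**Figure D3:**
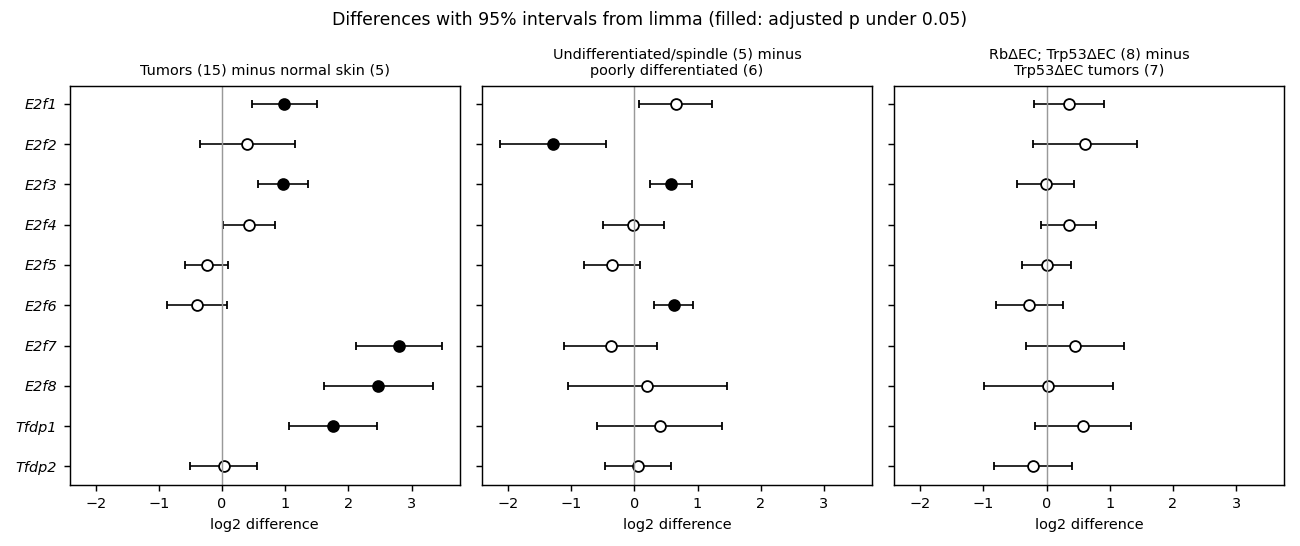
Log2 difference (horizontal axis) of each E2F and DP gene (rows) in 3 comparisons, with bars for the 95% interval from limma and filled points for adjusted p under 0.05. The 5 filled points stand at 0.96 to 2.80 for tumors against skin, E2f2, E2f3 and E2f6 are filled for grade, and none is filled between genotypes.

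The mixed tumors added a different profile when all 4 sample classes were fitted together. Against the poorly differentiated class, E2f6 (0.98 ± 0.18, adjusted p = 0.00058), Tfdp2 on its brightest probeset (0.85 ± 0.25, adjusted p = 0.017) and E2f3 (0.59 ± 0.18, adjusted p = 0.024) were higher in mixed tumors, where 13.5% of all genes were higher. E2f7 (-1.34 ± 0.29, adjusted p = 0.0021) and E2f4 (-0.62 ± 0.20, adjusted p = 0.027) were lower, where 11.9% of all genes were lower. Both of these genes have no other probeset as a check. On the dimmer probesets E2f6 differed by -0.03 (adjusted p = 0.91) and E2f3 by 0.02 (adjusted p = 0.94), and the other Tfdp2 probesets by -0.26 to 0.12, none of them called. The 4 mixed tumors measured 6.78, 6.56, 6.93 and 7.08 for E2f7, all below the 6 poorly differentiated tumors (7.21 to 9.12), as were 6.77% of all genes.

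Compared with the undifferentiated and spindle class, mixed tumors again had less E2f7 and E2f4. The undifferentiated and spindle tumors were higher than mixed tumors by 0.96 ± 0.30 for E2f7 (adjusted p = 0.029) and by 0.61 ± 0.20 for E2f4 (adjusted p = 0.045), beside 10.2% of all genes. Tfdp2 on its brightest probeset was lower in them by -0.80 ± 0.26 (adjusted p = 0.038), beside 9.15% of genes. No other Tfdp2 probeset was called, and their values for this contrast lay between -0.47 and 0.07 with adjusted p of 0.32 or above. In order of class means, E2f7 ran from skin (4.90) to mixed (6.84), undifferentiated and spindle (7.80) and poorly differentiated tumors (8.18), and the last 2 did not differ beyond their spread.

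Against skin, the brightest probesets of E2f1, E2f3, E2f7, E2f8 and Tfdp1 were each higher in all 3 tumor classes. The dimmer E2f3 probeset was called in all 3 as well, whereas the dimmer probesets of E2f1 and E2f8 were called in the undifferentiated and spindle class only, with adjusted p of 0.15 to 0.48 in the others. In the poorly differentiated class 7 members were higher and 1 lower, beside 19.2% and 19.6% of all genes. In the mixed class 5 were higher, beside 21.9% higher and 21.5% lower over all genes, and in the undifferentiated and spindle class 6 were higher, beside 22% and 20.2%. These contrasts share the same 5 skin samples. E2f2 was called against skin in the poorly differentiated class alone, with class means of 6.44 in skin, 7.50, 6.60 in mixed and 6.21 in undifferentiated and spindle tumors.

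Deletion of Rb in addition to Trp53 was examined between the 8 RbΔEC; Trp53ΔEC and the 7 Trp53ΔEC tumors. The targeted gene Rb1 was at 9.08 ± 0.13 (SD, n = 5) in skin, 8.22 ± 0.37 (n = 7) in Trp53ΔEC and 7.45 ± 0.59 (n = 8) in RbΔEC; Trp53ΔEC tumors. Its ranges in the tumor groups overlapped, 7.85 to 8.84 and 6.55 to 8.14, and the difference of -0.77 ± 0.25 was not called over all genes (adjusted p = 0.70, unadjusted p = 0.007). No source used here says whether its probeset reads the deleted part. Trp53 was not analysed here.

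None of the 10 E2F and DP genes was called between the genotypes by limma, and none had an unadjusted p under 0.05. Over all genes 0.011% were higher and 0.022% lower at the adjusted threshold, and 2.65% and 2.64% at the unadjusted one. The differences ran from -0.28 to 0.61. The widest intervals belonged to E2f8 (-0.99 to 1.04) and E2f2 (-0.22 to 1.44), and the narrowest to E2f5 (-0.39 to 0.39), and those of E2f2, E2f7, E2f8 and Tfdp1 reached above 1 log2 unit.

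E2f2 gave the largest value, 0.61 ± 0.39. In RbΔEC; Trp53ΔEC tumors its lowest, median and highest values were 6.22, 6.85 and 8.81, and in Trp53ΔEC tumors 5.54, 6.60 and 7.25, so the groups overlapped. The 2 highest tumors of all, at 8.81 and 8.10, were both RbΔEC; Trp53ΔEC and poorly differentiated. Tfdp1 differed by 0.58 ± 0.35, and by 0.30 ± 0.22 without RbΔEC; Trp53ΔEC tumor 3. E2f7, E2f1 and E2f4 differed by 0.45, 0.36 and 0.35, and E2f3, E2f5 and E2f8 by -0.02, 0.0029 and 0.03.

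The grade of the tumors was not balanced between genotypes, so the values were also read within classes. Among poorly differentiated tumors E2f1 was at 6.68 and 6.89 in Trp53ΔEC and at 7.16 to 8.20 in RbΔEC; Trp53ΔEC tumors, a difference of 0.97 ± 0.31 (adjusted p = 0.73). Among undifferentiated and spindle tumors the difference was -0.09 ± 0.18 (adjusted p = 0.92). The limma test of this change of effect with grade, fitted across all genes, gave -1.06 ± 0.39 for E2f1 (adjusted p = 0.68) and 1.17 ± 0.26 for E2f5 on its brightest probeset (adjusted p = 0.46). No gene of 18193 passed this interaction test after adjustment by limma, and 7.05% had an unadjusted p under 0.05. With histological class as a covariate no member was called between genotypes either.

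Of 28 S phase E2F targets none passed over all genes, but 12 had an unadjusted p under 0.05 and all 12 were higher in RbΔEC; Trp53ΔEC tumors, with a median difference of 0.44 for the list and -0.01 for all genes. Over all genes 2.65% were higher and 2.64% lower at that unadjusted threshold. The list was chosen with earlier results of these data known, so the count is a description only. Mcm5 was higher by 0.94 ± 0.22 (adjusted p = 0.33), Cdt1 by 0.90 and Gins2 by 0.88. The cyclin E gene Ccne2 was at 7.61 in Trp53ΔEC and 8.96 in RbΔEC; Trp53ΔEC tumors with no overlap between the groups (adjusted p = 0.43), where 0.044% of all genes lay without overlap in this direction and 0.0934% in the other. Rbl1 (0.44), Cdkn2c (0.69), Cdkn1a (1.56), Mybl2 (0.67) and the mitosis gene Ndc80 (0.66) were also higher at an unadjusted p under 0.05, and Ccnd1 was lower (-1.20) at that threshold, as was Rb1. The skeletal muscle markers were lower in RbΔEC; Trp53ΔEC tumors at an unadjusted p under 0.05 for 9 of 10 genes, with a median of -1.79. Grade was not balanced between the genotypes, and Cdkn1a differed by -2.04 between undifferentiated or spindle and poorly differentiated tumors. The part of muscle markers and of grade in these list differences was not tested.

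Across the 15 tumors the members did not vary together. The highest correlation between members was 0.70 for E2f3 and E2f6, and the lowest was -0.71 for E2f2 and E2f3, with -0.67 for E2f1 and E2f5 and -0.63 for E2f2 and E2f6. The atypical pair E2f7 and E2f8, which act on the same targets, correlated at 0.23. Each member was read on its brightest probeset. The probesets of E2f5 and of Tfdp2 disagreed, so the correlations of these genes hold for that probeset only. These values are descriptions over 15 tumors that were normalized together and fall into the same histological classes.

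The gene most like each member, read on its brightest probeset, was found by Pearson's r among all other genes, a ranking over 18183 genes. E2f2 was most like Slc39a2 (0.93) and Rdh11 (0.93), E2f3 most like Btrc (0.94) and Tdp1 (0.90), and E2f6 most like Prr5 and Golm1 (both 0.93). E2f1 was most like Ankrd54 (0.89) and Tor1a (0.89), E2f5 most like Actrt3 and Sema6c (both 0.88), E2f7 most like Psg18 (0.86) and Lamtor1 (0.85), and E2f8 most like Gm30173 (0.87) and Dhx34 (0.86). Tfdp2 was most like Scaper (0.93) and Foxj3 (0.88). E2f4 and Tfdp1, both on chromosome 8, were most like genes of that chromosome, and both leading genes of E2f5 lay on its chromosome 3. For E2f1, E2f8 and Tfdp2 1 of the leading genes (Tor1a, Dhx34 and Scaper) lay on the member's own chromosome, and for E2f2, E2f3, E2f6 and E2f7 none did. The chromosome 8 genes were Ppp2cb (0.92) and Spcs3 (0.91) for E2f4, and Dcun1d2 (0.95) and Tubgcp3 (0.94) for Tfdp1.

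This position pattern was followed further after the values had been seen, and it is given as a description. Of the 50 genes most like E2f4, 31 lay on chromosome 8, and of the 50 most like Tfdp1, 28 did, whereas chromosome 8 holds 5.172% of the genes placed. For the other 8 members 1 to 9 of 50 lay on their own chromosome. When each tumor was left out in turn the count for E2f4 stayed between 24 and 39, but that for Tfdp1 dropped to 9 without RbΔEC; Trp53ΔEC tumor 3.

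In that tumor Tfdp1 did not stand alone. Dcun1d2, which lies 2 measured genes before Tfdp1, was 2.33 above the median of the other 14 tumors, Tmco3 3.16, Cul4a 2.06, Lamp1 1.56 and Tubgcp3 2.55, and on the later side Cdc16, 6 genes away, was 2.22, Champ1 2.47 and Coprs 3.70 above it. The 5 genes between Tfdp1 and Cdc16 were not raised, with differences of -0.29 (Gas6) to 0.13. Among them Grk1 and 1700029H14Rik had medians of 4.50 and 3.99 in the other 14 tumors, below the medians of the tumor arrays (5.65 to 5.75). For these a signal at background cannot be told from a low level. The medians of Atp4b (6.80), Rasa3 (9.02) and Gas6 (9.74) lay above the array medians. Tfdp1 itself was 2.34 above that median. Of the 20 genes on each side, 19 of 40 were more than 1 log2 unit above the median of the other tumors, compared with 5.296% of all genes in that tumor and with 0 to 10 of the same 40 genes in each other tumor. In a separate count, 19 of 40 were higher than in any other tumor, against 6.261% of all genes. Of the 58 genes still closer to the start of the chromosome 20 were raised by more than 1, and of the 40 next genes on the later side 2 were. E2f4, much farther along the same chromosome, was at 7.08 in this tumor, beside a mean over all tumors of 7.22.

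**Figure D4:**
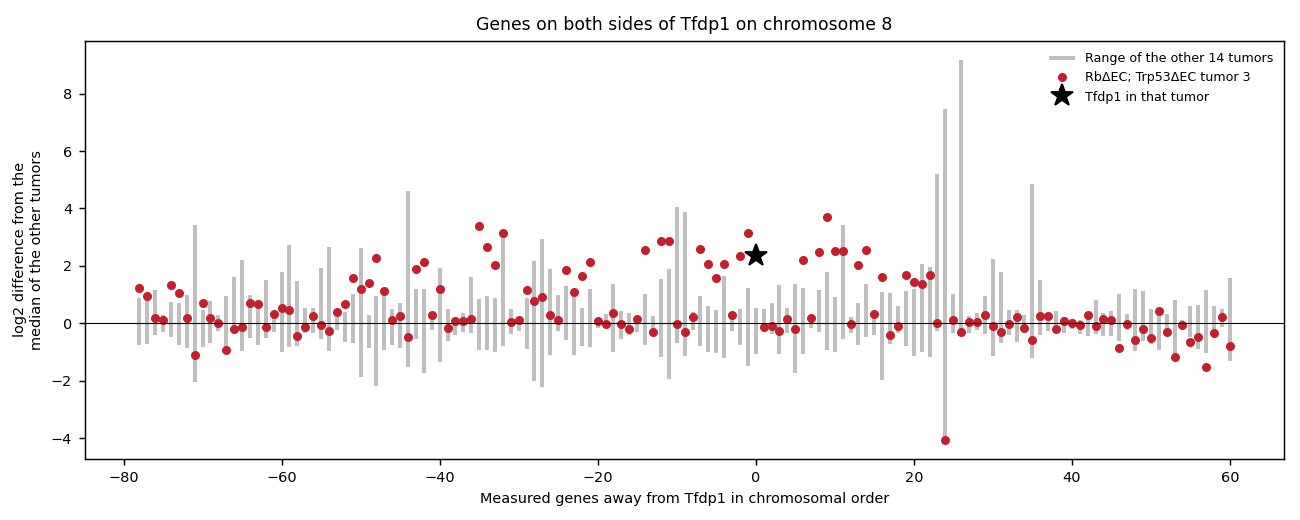
Log2 difference from the median of the other tumors (vertical axis) for measured genes in their order on chromosome 8, counted from Tfdp1 (horizontal axis); red points are RbΔEC; Trp53ΔEC tumor 3, the star is Tfdp1 at 2.34, and grey bars give the range of the other 14 tumors. Raised genes stand on both sides of Tfdp1 and become rare beyond about 20 genes on the later side, where 2 of 40 exceeded 1.

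For E2f4 the median r was 0.57 with its 10 nearest measured genes, 0.30 over chromosome 8 and -0.003 over all genes. In each tumor the other chromosome 8 genes were compared with their median in the other tumors, and the median of these differences was taken. It was lowest in the mixed Trp53ΔEC tumors 7 (-0.32) and 5 (-0.28), where E2f4 was 6.70 and 6.58. It was highest in the poorly differentiated RbΔEC; Trp53ΔEC tumors 8 (0.24), 6 (0.14) and 7 (0.12), where E2f4 was 7.78, 7.92 and 7.57. Over 15 tumors Pearson's r was 0.82 and Spearman's rho 0.93, and without the 2 tumors at the low end r was 0.79. For the other members r with their own chromosome's median lay between -0.37 and 0.56. Among the remaining mixed tumors, Trp53ΔEC tumor 3 had E2f4 at 6.71 with a chromosome 8 median of -0.09. RbΔEC; Trp53ΔEC tumor 4, also mixed, had 7.07 with -0.01. The poorly differentiated RbΔEC; Trp53ΔEC tumor 2 had 6.78 with -0.01. The part of the chromosome 8 level in the lower E2f4 of the mixed class was not tested.

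**Figure D5:**
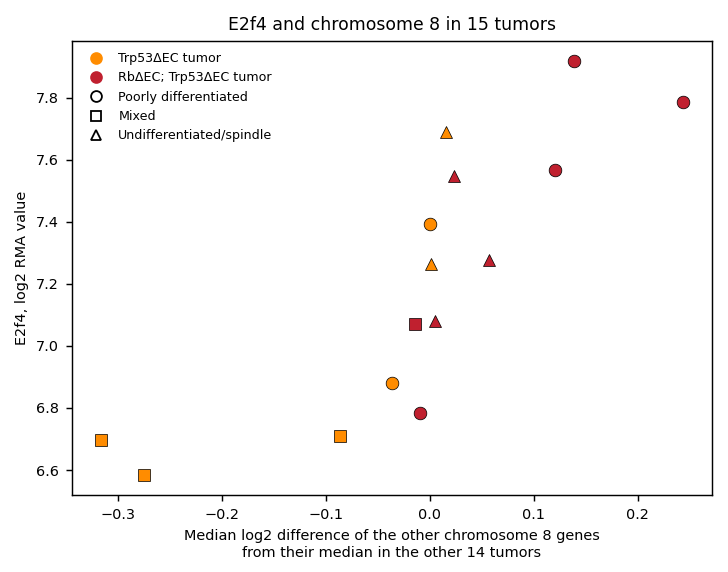
E2f4 (log2 RMA value, vertical axis) against the median log2 difference of the other chromosome 8 genes from their median in the other 14 tumors (horizontal axis), 1 symbol per tumor, shaped by histology and colored by genotype. The mixed Trp53ΔEC tumors lie at the lower left, at 6.58 to 6.71, and 3 poorly differentiated RbΔEC; Trp53ΔEC tumors at the upper right, at 7.57 to 7.92.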

How the data were processed

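RNA of 5 normal skin samples and 15 skin carcinomas was hybridized to 1 Affymetrix MOE430 2.0 array each. The deposited values are log2 expression per probeset, which the authors background-corrected, normalized and summarized with RMA (version not given in the sources used here), a step that equalizes the arrays' distributions and compresses differences of dim probesets. Values ran from 2.34 to 14.72, and the number of arrays limits the precision.

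Of 45101 probesets, 64 controls were left out. By the platform annotation 34945 probesets had 1 gene symbol, 932 several and 9160 none. Each gene was represented by its probeset with the highest mean (18193 genes), and 7 members had further probesets. Groups were compared with limma 3.58.1 in R 4.3.3 (lmFit and eBayes, two-sided, Benjamini-Hochberg over all genes, threshold 0.05) without covariates. Histological classes and skin were fitted together, and the genotype by grade interaction in the tumors of the 2 grades. Alternatives were the median of probesets, median centring, quantile normalization, the methods' t-test, exclusion of dim genes, the replicate number as a block, histology or genotype as covariates or subsets, and leaving out each sample. The steps were tested on simulated data.

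Besides the members, the text names up to 4 genes per pathway list and comparison, taking called genes by size of difference, the 2 genes most correlated with each member, and the targeted genes. The members and lists were chosen with earlier results of these data known. Gene order and promoter sequences came from RefSeq, the latter on build GRCm38.p6, and tables were handled in Python 3.11.15 with pandas 2.3.3.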

Additional observations from a re-analysis of the deposited data

Results flagged for a closer look

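Among 126 sets of values (each probeset in each group or class of 4 to 10 samples), 9 held a sample far from the others by Dixon's ratio at the 95% level, and chance flags about 1 set in 20. On the brightest probesets these were Tfdp1 in RbΔEC; Trp53ΔEC tumor 3 (12.76, next 10.96), both among the RbΔEC; Trp53ΔEC tumors and among the undifferentiated and spindle tumors (12.76, next 10.51), and E2f8 in RbΔEC; Trp53ΔEC tumor 6 (10.48, next 8.87). The dimmer probesets gave the rest. For E2f1 1447840_x_at, Trp53ΔEC tumor 2 (5.47) and RbΔEC; Trp53ΔEC tumor 3 (5.11) were highest in their genotypes. Within the undifferentiated and spindle class, Trp53ΔEC tumor 1 was lowest for E2f2 1455790_at (3.94) and Trp53ΔEC tumor 2 highest for E2f3 1427462_at (6.84). In normal skin, sample 1 was highest for E2f8 1444319_at (5.16) and sample 5 for Tfdp2 1437174_at (7.02).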

How the results depend on the processing

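Over all alternatives 712 of 807 values for single genes kept their direction and side of the threshold, and 2 reversed, both for E2f5 with the median of its probesets (1.42 against skin and 0.79, adjusted p = 0.013, for grade). Between tumors and skin the 5 higher genes were called in each refit of the whole comparison, except E2f1 in Trp53ΔEC tumors alone, and 1 member (E2f6) was lower when only the poorly differentiated class was used. The grade calls were less stable. E2f2, the only lower member, was not called (0 members lower) with the median of probesets, with either form of the methods' t-test, with dim genes left out (where it was not tested), with mixed tumors counted as poorly differentiated, or with undifferentiated tumors alone, and leaving out 1 tumor gave 0 to 1. Members called higher fell from 2 to 0 with mixed tumors counted as poorly differentiated and to 1 with undifferentiated tumors alone. With the replicate number as a block, grade gave 0 members in either direction (E2f6 adjusted p = 0.16) and 28 higher and 74 lower genes overall in place of 2304 and 1802, and the calls against skin stayed at 5 higher and 0 lower. Among samples with the same number, 3 of 17 pairs correlated above 0.1 (r from -0.48 to 0.64). The pairs at 0.63 and 0.64, of tumors 1 and of tumors 6 of both genotypes, each shared a histological class. Whether the numbers mark a pairing therefore cannot be told from these correlations. Median centring shifted the median of all genes between tumors and skin from 0.02 to -0.08 and the split of called genes from 3226 higher and 3268 lower to 2579 and 4234, and left the 5 members called, while exclusion of dim genes (9097 tested) gave 2369 and 1482. Grade gave 1293 and 711 genes with mixed tumors counted as poorly differentiated and 1471 and 1455 with them counted as undifferentiated. Between genotypes the counts of 2 higher and 4 lower genes became 5 and 1 with the median of probesets, 1 and 2 with unequal variances, 1 and 4 without dim genes, 4 and 4 without Trp53ΔEC tumor 2 or 3, and 0 and 0 with the replicate block or within 1 grade. In the comparison of genotypes no alternative called a member. Low signal limits E2f7 in skin and the dimmer probesets.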
